A study of Mus musculus with 2 samples.

Results

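Integrins are cell surface receptors made of an alpha and a beta subunit, and a subunit reaches the surface only with its partner. The pairing sets the ligand, which can be a collagen, a laminin, a protein with the tripeptide RGD or a counter-receptor on another cell. Laminins are secreted trimers of an alpha, a beta and a gamma chain that build basement membranes, the thin matrix sheets under epithelia and around vessels, muscle and fat. Integrins of leukocytes and platelets act in the arrest of blood cells at the vessel wall, while laminin receptors anchor epithelial and stem cells to their matrix.

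Here, 36 genes for integrin subunits and laminin chains, chosen by name, were examined in CH cells, of which 34 had at least 1 probe set that named them alone, out of 18193 such genes on the array. The alpha subunits Itga11 and Itgad had none and were not analysed here. CH cells are small CD45-negative, lineage-negative cells with stainable DNA, sorted from the blood of healthy, untreated mice, and 2 Affymetrix whole-genome mouse arrays were run, 1 for each pool. Per the labels, each pool held cells of 15 mice of strain C57bl/6, male and female, adult, 7 months old. The paper's general methods give younger mice and smaller pools, and which of these holds for the arrays is not settled by the sources used here. There was 1 group, so no comparison between populations was made. Every p-value tests a mean signal against a fixed limit, which is given below. Its error was drawn from differences between these 2 pools alone and was shared in part across all probe sets. The p-values therefore do not measure the spread of each gene by itself.

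The measured quantity was the log2 signal of a probe set, that is, of several short oligonucleotides that read the same transcript. The arrays correlated with Pearson's r = 0.997 over 45037 probe sets, which are not independent replicates, and their difference had an SD of 0.20. A gene counted as above the limit if both arrays gave more than 5 (log2) with at least 1 probe set, and its level was that of its highest probe set by mean. Of 77 genes for receptors of smell and taste, a measure of signal in the absence of the transcript, 13 (16.9%) also passed 5, and the highest of them, Vmn1r44, was at 6.92. Signals of different probe sets also carry the affinity of their probes, so the levels below do not rank transcripts by abundance. For that reason, and because the lists differ in length, summed linear signals of marker lists do not compare amounts of cell types. CD45 itself, encoded by Ptprc, had signals of 4.95 and 5.24 and was not above 5 on both arrays. In pooled RNA, fewer cells of a type and less RNA per cell cannot be told apart.

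CH cell arrays carried strong signal for a small set of these genes and signal near the limit for most others. Of the 34 members, 26 (76.5%) were above 5 on both arrays, while over all genes 71.2% were. By limma, with Benjamini-Hochberg adjustment over all probe sets, 23 members were above 5 at an adjusted p under 0.05, and 69.1% of all genes. Of the 77 genes for receptors of smell and taste, 11 passed limma too, so a pass alone does not show a transcript. Above 6 lay 16 members, and 57.8% of all genes, and the same number lay above the 95th percentile of the chemosensory probe sets (6.02), as did 57.5% of all genes. Above the level of Vmn1r44 lay 11 members (32.4%), and 48.3% of all genes. Above 8 lay 7 members (20.6%), and 37.0% of all genes. These 7 were Itga6, Itgav, Itgb1, Itgb5, Itgb8, Lamb1 and Lamc1. The median over the 34 members was 5.78, and that over all genes was 6.84. The share above 5 was thus near that of all genes, whereas the shares above the higher limits were smaller, and no test between members and other genes was made.

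Of the 16 alpha subunits, 2 (12.5%) were above 8, while 37.0% of all genes were. These were the subunits of RGD receptors and of a laminin receptor. Itgav, the alpha subunit shared by the receptors of vitronectin, fibronectin and latent TGF-beta, had signals of 12.02 and 12.18 (mean 12.10 ± 0.11, SD, n = 2 arrays). Itga6, which binds laminin together with Itgb1 or Itgb4, had signals of 11.30 and 11.40 (mean 11.35 ± 0.07). Both differed between the arrays by less than the SD of all probe sets, and both were above 5 by limma, with adjusted p-values of 9.0e-08 for each. The 2 probe sets of Itga6 were at 11.35 and 10.74. By contrast, the 5 probe sets of Itgav lay at 12.10, 7.03, 5.77, 3.83 and 3.59, so the high level of this gene rests on 1 of them.

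Among the beta subunits, 3 of 8 (37.5%) were above 8, a share near the 37.0% of all genes. Itgb1, the partner of most alpha subunits, had signals of 11.30 and 11.42 (mean 11.36 ± 0.08, SD, n = 2 arrays). Its 6 probe sets disagreed, with 11.36 and 10.95 for those that were high, 6.79 for the third, and 3.88, 3.42 and 3.23 for the rest. Itgb5, a partner of Itgav in the receptor of vitronectin, had signals of 11.15 and 11.07 (mean 11.11 ± 0.05), and its 4 probe sets lay between 10.57 and 11.11. Itgb8, which with Itgav activates latent TGF-beta, had signals of 8.52 and 8.90 (mean 8.71 ± 0.27) from 1 probe set. The highest adjusted p of limma among these 3 was 1.6e-06, for Itgb8. Itgb6, the epithelial subunit that also pairs with Itgav, had signals of 4.22 and 3.98 and was below 5 (adjusted p = 2.3e-04 from limma).

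**Figure D1:**
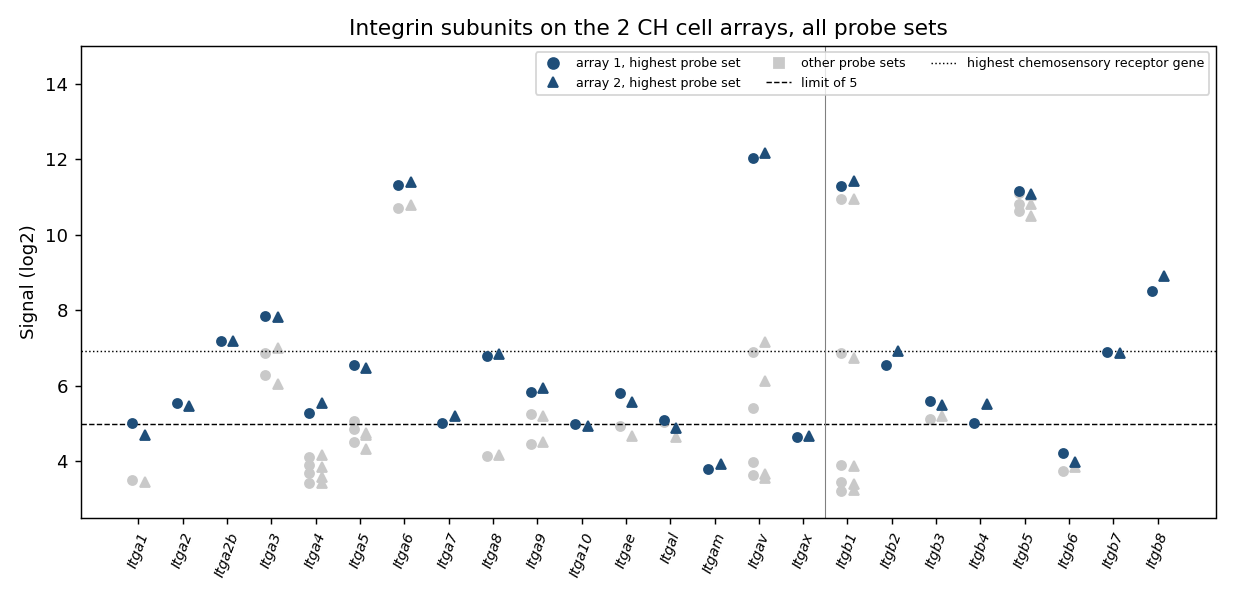
Log2 signal of every probe set of 16 alpha (left of the grey line) and 8 beta subunits on array 1 (circles) and array 2 (triangles), with the highest probe set of each gene in blue and the others in grey. Dashes mark 5 and dots the level of Vmn1r44 at 6.92. Itga6 and Itgb5 are high with all their probe sets, whereas the probe sets of Itgav spread from 3.59 to 12.10 and those of Itgb1 from 3.23 to 11.36.

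Of the laminin-binding alpha subunits, 3 of 3 were above 5 on both arrays, and 2 passed limma. Over all genes these shares were 71.2% and 69.1%, and the counts of 3 subunits were not tested. Besides Itga6, Itga3, which with Itgb1 binds the laminins of epithelial basement membranes, had signals of 7.84 and 7.82 (mean 7.83 ± 0.02, SD, n = 2 arrays), and its other probe sets were at 6.93 and 6.17. Itga7, the laminin receptor subunit of muscle, was at the limit, with 5.003 and 5.196 (adjusted p = 0.29 from limma). Itgb4, which pairs with Itga6 in the hemidesmosomes of epithelia, had signals of 5.02 and 5.50 (adjusted p = 0.10) and differed between the arrays by 0.48, the largest absolute difference of the 34 members. The next largest were those of Lamc3 (0.43) and Itgb8 (0.38), and 32 of the 34 differed by less than 2 SD of the difference over all probe sets. Of the 8 epithelial markers, 7 (87.5%) were above 5 and 5 (62.5%) above 8, while 71.2% and 37.0% of all genes were. The highest were Krt8 at 11.87 ± 0.03, Krt18 at 10.66 ± 0.01, Cdh1 at 9.33 ± 0.03 and Epcam at 9.10 ± 0.06, while Krt14, a keratin of basal cells, was at 4.70 ± 0.02. The summed linear signal of these markers was 7274 on array 1 and 7034 on array 2, and their part in the signal of Itga6 and Itga3 was not tested.

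Of the collagen-binding alpha subunits, 1 of the 3 that were analysed was above 5, while 71.2% of all genes were. No test between collagen-binding and laminin-binding subunits was made. Itga2, the collagen receptor subunit of platelets and epithelia, had signals of 5.54 and 5.46 (adjusted p = 0.0012 from limma). Itga1, the subunit of smooth muscle and fibroblasts, had signals of 5.02 and 4.70 (adjusted p = 0.24). Itga10, the subunit of cartilage, had signals of 4.99 and 4.94 (adjusted p = 0.64). None of the 3 reached the level of Vmn1r44, on arrays where the collagen chain Col1a2, among the ligands, was at 14.27 ± 0.03 (SD, n = 2 arrays). The 9 mesenchymal stromal markers were all above 5 and 7 (77.8%) were above 8, while 71.2% and 37.0% of all genes were. Among these markers, Col3a1 was at 12.83 ± 0.14, Dcn at 11.99 ± 0.06 and Prrx1 at 11.62 ± 0.02, next to Col1a2. Their summed linear signal was 39038 on array 1 and 38760 on array 2, and their part in the signal of the members was not tested.

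The remaining RGD-binding alpha subunits were above 5, as were 71.2% of all genes, but not above 8. Itga2b, the alpha subunit of the fibrinogen receptor of platelets, had signals of 7.18 and 7.19 (mean 7.18 ± 0.003, SD, n = 2 arrays). Itga8, the receptor subunit for nephronectin, had signals of 6.80 and 6.84, and its other probe set was at 4.15. Itga5, the main alpha subunit of the fibronectin receptor, had signals of 6.55 and 6.48, whereas its other 3 probe sets lay at 4.89, 4.80 and 4.42. The highest adjusted p of limma among these 3 was 1.1e-05, for Itga5. Itgb3, the partner of Itga2b, had signals of 5.60 and 5.49 (adjusted p = 9.1e-04), and its other probe set was at 5.15. The platelet and megakaryocyte markers were above 5 in 6 of 8 cases (75%), near the 71.2% of all genes. Above Vmn1r44 on both arrays were 0 of them, and 48.3% of all genes. The highest were Ppbp at 6.99 ± 0.10, Gp9 at 6.41 ± 0.37, Gp1bb at 6.34 ± 0.16 and Treml1 at 6.10 ± 0.14, while Gp6 was at 4.61 ± 0.08 and Vwf at 3.83 ± 0.24. The summed linear signal of the 8 markers was 497 on array 1 and 518 on array 2, and the part of platelet RNA in the signal of Itga2b was not tested.

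The Itgb2 integrins of leukocytes had 0 of 3 assessed pairs complete. Itgb2, the common beta subunit of the leukocyte integrins, had signals of 6.56 and 6.92 (mean 6.74 ± 0.26, SD, n = 2 arrays), and was above 5 by limma (adjusted p = 3.2e-05). Its 3 alpha partners that were analysed were not above 5 on both arrays, while 71.2% of all genes were. Itgam, known as CD11b and a target of lineage antibodies, had signals of 3.78 and 3.92 and was below 5 (adjusted p = 4.2e-05). Itgax, the subunit of dendritic cells known as CD11c, had signals of 4.64 and 4.67 and was below 5 as well (adjusted p = 0.0054). Itgal, which binds ICAMs on lymphocytes, had signals of 5.08 and 4.88 (adjusted p = 0.85). In all, 3 of the 34 members, Itgam, Itgax and Itgb6, were below 5 by limma, and 23.6% of all genes were.

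Itgb7, the beta subunit of gut-homing lymphocytes, had signals of 6.91 and 6.87 (mean 6.89 ± 0.02, SD, n = 2 arrays). Itgae, its partner on lymphocytes inside epithelia, had signals of 5.80 and 5.57 (adjusted p = 7.1e-04 from limma). Itga4, its other partner and a receptor of Vcam1 with Itgb1, had signals of 5.27 and 5.55 (adjusted p = 0.0081), but its other 4 probe sets lay between 3.50 and 4.14. Itga9, the relative of Itga4 that binds tenascin, had signals of 5.83 and 5.93 (adjusted p = 1.2e-04). None of these 4 genes reached the level of Vmn1r44 on both arrays. Of 10 leukocyte markers, 8 (80%) were above 5 and 3 (30%) above Vmn1r44 on both arrays, while 71.2% and 48.3% of all genes were. The highest were Cd48 at 9.66 ± 0.13, Cd53 at 8.25 ± 0.22, Csf1r at 7.42 ± 0.10 and Laptm5 at 6.69 ± 0.02. The median of the list was 6.27, against 6.84 for all genes. Not above 5 on both arrays were the NK cell gene Ncr1 at 4.76 ± 0.02 and Ptprc at 5.10 ± 0.21. The summed linear signal of the 10 markers was 1630 on array 1 and 1752 on array 2, and the part of leukocyte RNA in the signal of Itgb2 and Itgb7 was not tested.

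When alpha and beta subunits were paired by the heterodimers known in mammals, 22 of 24 could be assessed, and 16 had both subunits above 5 on both arrays. With Itgb1, 9 of 11 pairs were complete, and the missing partners were Itga1 and Itga10. With Itgav, 4 of 5 pairs were complete, and the missing partner was Itgb6. Itgb1 and Itgav were themselves above 5, so these counts give only how many of their partners were. Over all genes taken singly, 71.2% were above 5 and 37.0% above 8. Itgb2 formed 0 of 3 and Itgb7 2 of 2. Both subunits were above 8 in 4 pairs, namely Itga6 with Itgb1 and Itgav with Itgb1, Itgb5 or Itgb8. Itga3 with Itgb1 was added when the level of Vmn1r44 was the limit, for 5 pairs in all. Pairs share subunits, so these counts were not tested, and RNA of both subunits does not show a receptor at the surface.

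**Figure D2:**
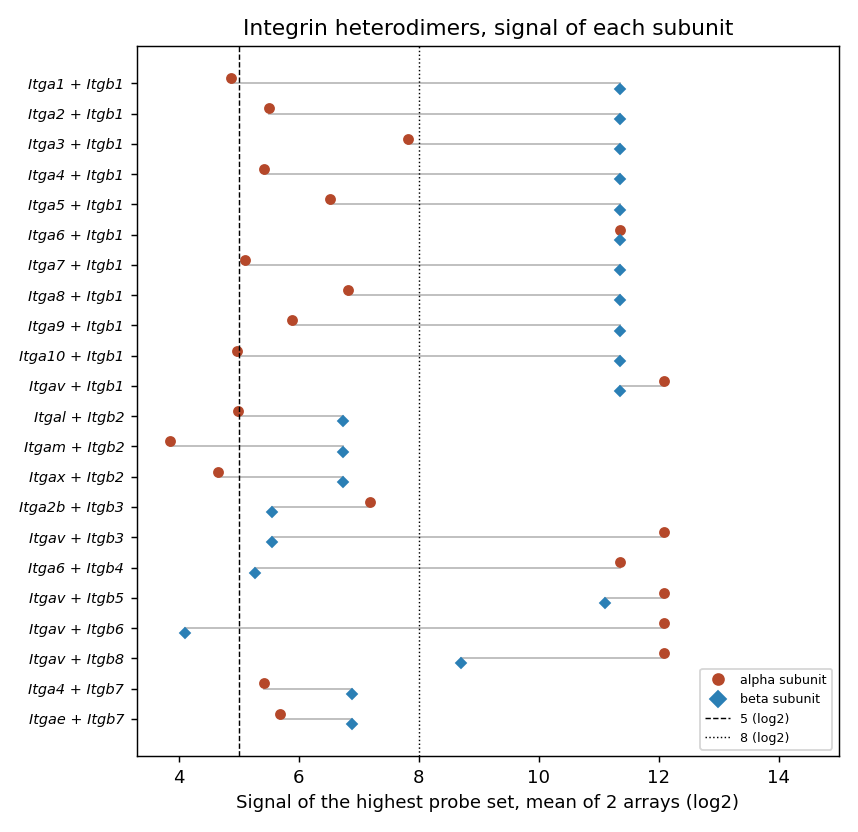
Mean log2 signal of the highest probe set of each alpha subunit (circles) and beta subunit (diamonds) in 22 heterodimers, joined by a grey line. Dashes mark 5 and dots mark 8. In 4 pairs both symbols lie right of the dotted line, and in 6 pairs 1 symbol lies left of the dashed line.

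Among the laminin chains, 2 of 10 (20%) were above 8, while 37.0% of all genes were. These were 1 beta and 1 gamma chain, and no alpha chain was above 8. Lamb1, the beta chain of most laminins of embryo and adult, had signals of 11.90 and 11.98 (mean 11.94 ± 0.06, SD, n = 2 arrays). Its other probe sets were at 9.57, 9.31 and 4.34, so 3 of 4 were above 8. Lamc1, the gamma chain shared by most laminins, had signals of 8.70 and 8.68 (mean 8.69 ± 0.02), and its other probe set was at 7.27. Lamb2, the beta chain of kidney and synapse, had signals of 7.04 and 7.17 (mean 7.10 ± 0.09). These 3 chains were above 5 by limma, with the highest adjusted p at 3.6e-06, for Lamb2. Lamb3, a chain of the laminin under skin, had signals of 5.47 and 5.43 (adjusted p = 0.0018). Lamc3 had signals of 5.21 and 4.79 and was not above 5 on both arrays (adjusted p = 0.995 from limma).

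Of the 5 alpha chains, Lama5 stood apart from the limit. This chain, which is widespread in adult basement membranes, had signals of 7.86 and 7.76 (mean 7.81 ± 0.07, SD, n = 2 arrays; adjusted p = 8.9e-07 from limma). Its other probe sets were at 6.27 and 4.01. Lama2, the chain of muscle and nerve, had signals of 6.05 and 6.09 (adjusted p = 4.1e-05). Lama1, the chain of the first basement membranes of the embryo, had signals of 5.67 and 5.59 (adjusted p = 4.5e-04). Both passed limma but lay below the level of Vmn1r44. Lama3, the alpha chain under epithelia such as skin, had signals of 5.06 and 5.28 (adjusted p = 0.10), and Lama4, the chain of vessels, had 5.23 and 4.95 (adjusted p = 0.39).

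All chains were above 5 in 8 of 13 laminin trimers that can be formed from the listed chains, and 6 trimers were complete by limma. Over all genes taken singly, 71.2% were above 5 and 69.1% passed limma. Trimers share chains, so these counts were not tested. The complete trimers all held Lamc1, joined to Lama1, Lama2, Lama3 or Lama5 with Lamb1 or Lamb2. Only laminin-511 and laminin-521, made of Lama5, Lamc1 and either Lamb1 or Lamb2, kept all chains above the level of Vmn1r44 on both arrays. Above 8, 0 trimers were complete, since no alpha chain was. With array 1 alone, 13 of 13 trimers were complete, because Lama4 and Lamc3 were above 5 on that array and below it on the other.

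Extraembryonic endoderm is a known source of laminin in the early embryo. Of its 9 markers, 7 (77.8%) were above 5, near the 71.2% of all genes. Above Vmn1r44 on both arrays were 5 (55.6%), and 48.3% of all genes. Dab2 was at 8.68 ± 0.01 (SD, n = 2 arrays), Sox17 at 8.22 ± 0.16, Gata6 at 8.21 ± 0.22 and Pdgfra, also a stromal marker, at 10.63 ± 0.10, while Sox7 was at 4.64 ± 0.17 and Amn at 4.85 ± 0.03. Their summed linear signal, in which Pdgfra had the largest part, was 2841 on array 1 and 3056 on array 2. Pdgfra was also counted in the sum of the stromal markers and among the 5 above Vmn1r44. Of 8 markers of endothelial cells, which make Lama4, 4 (50%) were above 5 and 0 above Vmn1r44 on both arrays, while 71.2% and 48.3% of all genes were. Kdr was at 6.43 ± 0.01, Cldn5 at 5.53 ± 0.21, Esam at 5.36 ± 0.09 and Cdh5 at 5.13 ± 0.09, while Pecam1 was at 4.57 ± 0.04, Tek at 4.34 ± 0.17, Emcn at 4.17 ± 0.01 and Tie1 at 4.15 ± 0.08. Of the erythroid markers, 2 of 5 (40%) were above 5, while 71.2% of all genes were. These were Epor at 7.14 ± 0.18 and Klf1 at 5.90 ± 0.29, while Alas2 was at 4.91 ± 0.06, Slc4a1 at 4.44 ± 0.26 and Hba-a1 at 4.22 ± 0.05. The summed linear signals were 292 and 285 for endothelial and 274 and 270 for erythroid markers on array 1 and array 2. The part of such cells in the signal of the laminin chains was not tested.

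Proteins that join laminin in the basement membrane were above 5 in 10 of 13 cases (76.9%), near the 71.2% of all genes, and 10 passed limma, as did 69.1% of all genes. Nid1, which bridges laminin and type IV collagen, was at 10.04 ± 0.07 (SD, n = 2 arrays). Col4a1, the most widespread chain of type IV collagen, was at 9.60 ± 0.04, Hspg2, which encodes perlecan, at 9.09 ± 0.01 and Agrn, which encodes agrin, at 8.84 ± 0.10. The 3 genes not above 5 were the kidney chains Col4a3 at 4.71 ± 0.01 and Col4a4 at 4.43 ± 0.12, and Col15a1 at 4.62 ± 0.02. Receptors of laminin other than integrins were above 5 in 7 of 7 cases and above Vmn1r44 on both arrays in 6 (85.7%), while 71.2% and 48.3% of all genes were. Dag1, the precursor of dystroglycan, was at 10.86 ± 0.05, and the syndecans Sdc2 and Sdc4, proteoglycans of the cell surface, were at 11.83 ± 0.06 and 11.43 ± 0.02. Rpsa, a ribosomal protein that also serves as a laminin receptor, was at 14.33 ± 0.02 in its higher probe set, against 3.79 in its lower.

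**Figure D3:**
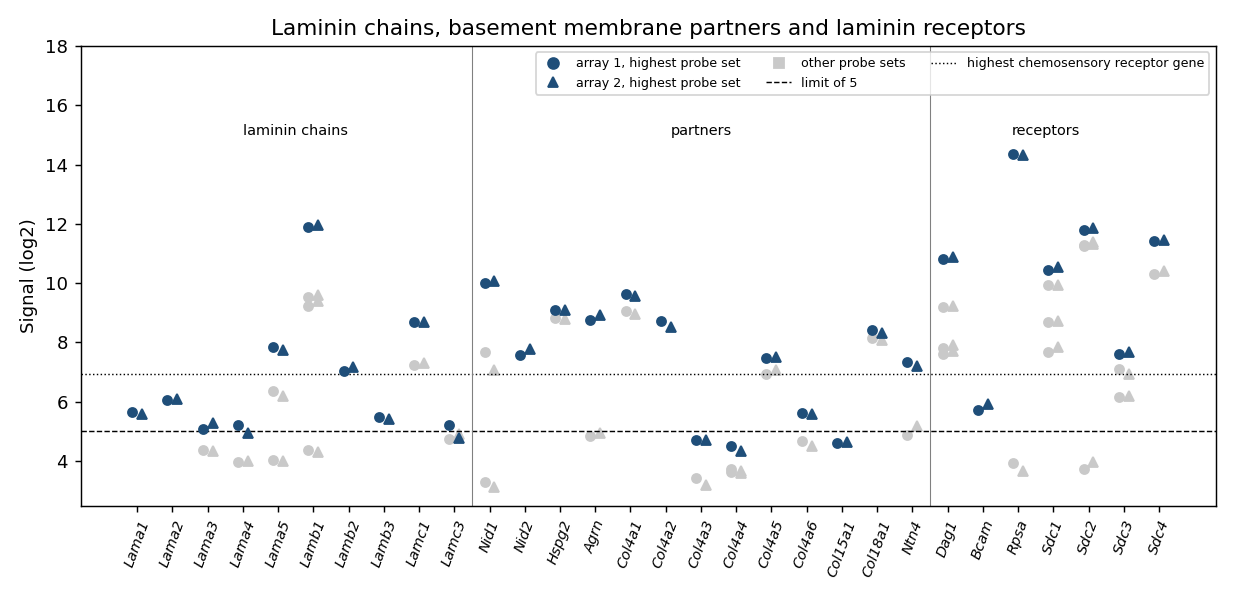
Log2 signal of every probe set of 10 laminin chains, 13 basement membrane partners and 7 laminin receptors that are not integrins, separated by grey lines, on array 1 (circles) and array 2 (triangles), with the highest probe set of each gene in blue. Dashes mark 5 and dots the level of Vmn1r44 at 6.92. Lamb1 lies near 11.94 and Lamc1 near 8.69, and Lama5 is the only alpha chain above the dotted line.

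Genes that couple integrins to actin and to signalling were above 5 in 34 of 34 cases, by limma in 34, and above 8 in 27 (79.4%). Over all genes these shares were 71.2%, 69.1% and 37.0%. Their median was 10.19, against 6.84 for all genes, and no test of this difference was made. Actn4 and Actn1, actinins that crosslink actin, were at 12.10 ± 0.12 and 11.96 ± 0.07 (SD, n = 2 arrays). Rap1b, a small GTPase that turns integrins on, was at 13.08 ± 0.11, and Cd81, a tetraspanin that associates with integrins, was at 13.20 ± 0.11. Tln1 and Tln2, talins that bind beta tails and open the receptor, were at 9.74 ± 0.11 and 8.07 ± 0.01. Of the kindlins, which act beside talin, Fermt2 was at 10.56 ± 0.04, whereas Fermt3, the form of blood cells, was at 5.76 ± 0.27. Tln1, Tln2, Fermt2 and Fermt3 were named after their values were seen.

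Other ligands of integrins were above 5 in 14 of 19 cases (73.7%), a share near the 71.2% of all genes. Besides Col1a2, Fn1, which encodes fibronectin, was at 13.93 ± 0.09 (SD, n = 2 arrays), Thbs1, a matricellular protein with an RGD site, at 12.21 ± 0.10, and Tnc, which encodes tenascin C, at 11.54 ± 0.03. The fibrinogen chains Fga at 3.27 ± 0.16, Fgb at 4.78 ± 0.11 and Fgg at 4.11 ± 0.01 were not above 5, nor was Vtn, which encodes vitronectin, the plasma ligand of Itgav with Itgb5, at 4.23 ± 0.16. Icam2, a ligand of Itgal with Itgb2, was at 4.93 ± 0.35 and not above 5 on both arrays. Vcam1, the counter-receptor of Itga4 with Itgb1, was at 9.91 ± 0.004. Icam2 and Vcam1 were named after their values were seen.

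**Figure D4:**
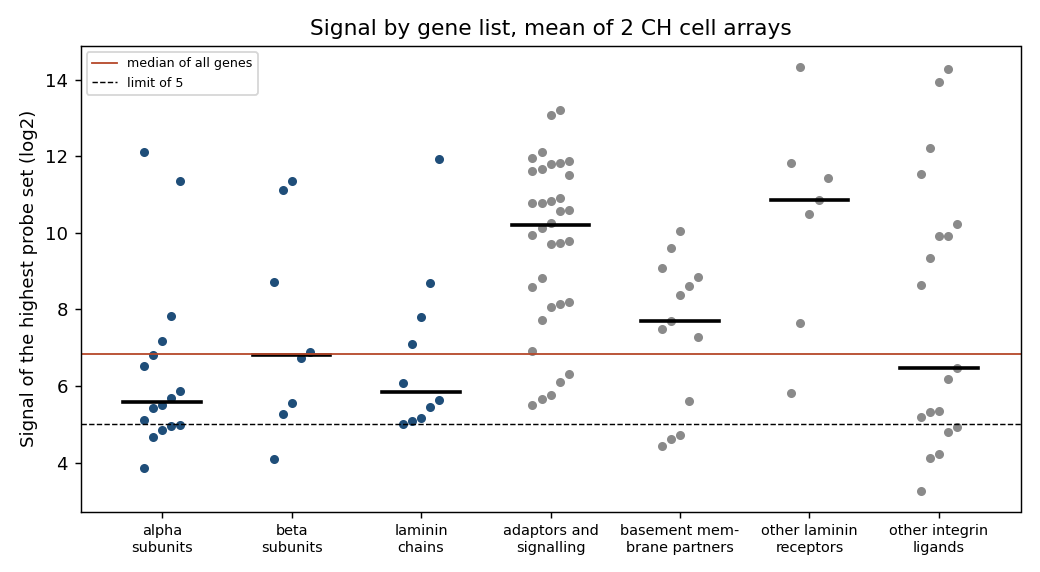
Mean log2 signal of the highest probe set for the genes of 7 lists, with a black bar at each median, the members in blue and the related lists in grey. The red line is the median of all genes at 6.84 and the dashed line marks 5. The medians are 5.59 for alpha subunits, 6.82 for beta subunits, 5.85 for laminin chains and 10.19 for adaptors and signalling genes.

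Promoters of 22 of the 34 members were matched in RefSeq (build GRCm38.p6). CG dinucleotides, the sites of DNA methylation in mammals, were counted on the 250 bases before the start, and the start with most was taken for the 3 members with several. CG reads the same on both strands, and 92.1% of the 32851 promoters in that table held at least 1. The 250 bases of 2 members above 8 and of 2 below 5 are shown, 5′ to 3′ on the strand of the gene with CG in capitals, because these genes contrast high with low signal and have 1 start each in that table. All 4 lie on the plus strand, Itgav at chr2:83724147-83724396, Itgb1 at chr8:128685404-128685653, Itgam at chr7:128062390-128062639 and Itgax at chr7:128129300-128129549.
Itgav: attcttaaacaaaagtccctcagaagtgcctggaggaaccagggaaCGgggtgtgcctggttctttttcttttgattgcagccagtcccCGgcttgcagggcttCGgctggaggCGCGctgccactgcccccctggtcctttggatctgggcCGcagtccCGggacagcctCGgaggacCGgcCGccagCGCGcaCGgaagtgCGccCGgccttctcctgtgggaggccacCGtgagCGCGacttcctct
Itgb1: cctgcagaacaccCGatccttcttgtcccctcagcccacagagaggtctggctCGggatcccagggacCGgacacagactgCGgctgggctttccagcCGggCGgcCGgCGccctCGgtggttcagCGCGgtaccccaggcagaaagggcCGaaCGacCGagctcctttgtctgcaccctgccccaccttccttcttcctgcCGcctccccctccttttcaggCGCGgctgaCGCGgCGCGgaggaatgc
Itgam: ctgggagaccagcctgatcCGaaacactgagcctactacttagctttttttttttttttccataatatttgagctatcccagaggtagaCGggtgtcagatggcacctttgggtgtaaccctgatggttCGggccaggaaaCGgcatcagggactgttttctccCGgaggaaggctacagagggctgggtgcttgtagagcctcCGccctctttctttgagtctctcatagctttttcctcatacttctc
Itgax: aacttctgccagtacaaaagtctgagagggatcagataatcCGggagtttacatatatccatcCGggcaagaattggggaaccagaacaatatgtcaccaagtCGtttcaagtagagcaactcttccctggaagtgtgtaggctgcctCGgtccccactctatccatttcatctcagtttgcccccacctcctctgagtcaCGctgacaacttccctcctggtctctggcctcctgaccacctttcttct

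Itgb1 held 21 CG and Itgav 18, whereas Itgam held 6 and Itgax 5. As many CG or more were held by 16.3% of all promoters for Itgb1, 21.7% for Itgav, 50.4% for Itgam and 55.6% for Itgax. The median was 18 CG for the 5 members above 8 with a promoter (range 12 to 21), 8 for the 12 between the limits (range 0 to 22) and 6 for the 5 not above 5 (range 2 to 11). Over 14452 genes, each with its start of most CG, the median was 14. By class the medians were 18, 13 and 5 in the same order of signal, so the members followed the order seen over all genes. The classes overlapped, and Lama2 held 0 and Itga2b 2 with signals above 5. This is a description of sequence, with no methylation measured.

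**Figure D5:**
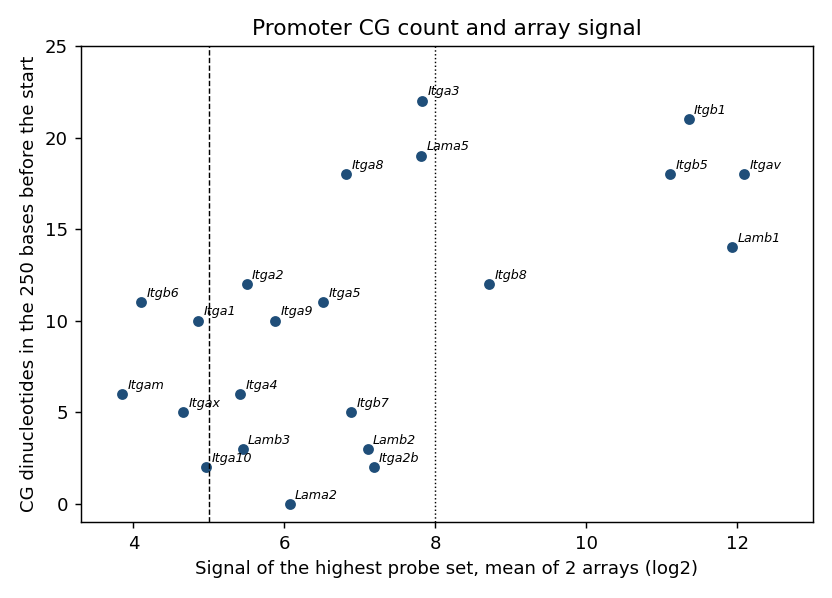
CG dinucleotides in the 250 bases before the start (vertical axis) and mean log2 signal of the highest probe set (horizontal axis) for 22 members, with 1 point for each gene. Dashes mark 5 and dots mark 8. The 5 members right of the dotted line hold 12 to 21 CG, while members left of it hold 0 to 22.

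Probe sets of the same gene did not always fall on the same side of the limit. Of the 34 members, 14 had 1 probe set and 20 had several, and in 10 of these 20 some probe sets were above 5 and others were not. In 5 of the 20, Itga3, Itga6, Itgb3, Itgb5 and Lamc1, all probe sets were above 5. Of the 7 members above 8, 3 had a probe set that was not above 5, namely Itgav, Itgb1 and Lamb1. Of all 73 probe sets of the members, 42 were above 5 on both arrays, and 57.2% of all probe sets were. Taken as the median of its probe sets, Itgb1 was at 5.34 and Itgav at 5.77, while Itga6 was at 11.05, Itgb5 at 10.94 and Lamb1 at 9.44.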

How the data were processed

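The authors hybridized RNA to Affymetrix whole-genome mouse arrays and deposited a log2 signal for each probe set. By their methods, RMA and quantile normalisation were run jointly on these arrays and 5 series of other cells. No source used here says if the deposited table is the output of that run or which tool versions were used. Joint normalisation ties the levels to arrays of other cells that were not analysed here. Of 45101 probe sets, 64 controls were left out, and 34945 named 1 gene in the platform annotation. For the members, all 73 probe sets matched the symbol of their Entrez identifier in GRCm38.p6. The limit of 5 takes its value from the study's filter, which removed genes below 5 in the whole joint set before clustering. Here it was applied to the CH cell arrays alone. Each mean was tested against 5, two-sided, with limma 3.58.1 (R 4.3.3) in an intercept-only fit with moderated variances. The p-values of all 45037 probe sets were adjusted by Benjamini-Hochberg, and the step was tested on simulated data. Tables and figures were made in Python 3.11.15 with pandas 2.3.3. The number of arrays limits the precision.

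Members and lists were chosen with earlier results of these data known. Named were all members, up to 4 genes with the highest mean and up to 4 not above 5 of each list, Ptprc, the highest chemosensory receptor gene (symbols starting Olfr, Vmn1r, Vmn2r, Tas1r or Tas2r) and the 3 members with the largest difference between the arrays. Alternatives were limits of 6, 8 and the 95th percentile over probe sets of chemosensory receptors (6.02), limma, quantile normalization of both arrays together, the median instead of the highest probe set, omission of probe sets ending in _s_at or _x_at, and omission of either array. Laminin trimers with a chain outside the members were not analysed here. No protein sequences were used here.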

Additional observations from a re-analysis of the deposited data

How the results depend on the processing

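No paired analysis was possible because the series holds 1 group. A higher limit admits fewer genes by construction. At a limit of 6, the counts were 11 integrin subunits, 5 laminin chains, 7 heterodimers and 4 trimers, and the 95th percentile of the chemosensory receptors (6.02) gave 11, 5, 7 and 4. At a limit of 8, they were 5 subunits, 2 chains, 4 heterodimers, 0 trimers, 11 basement membrane partners and laminin receptors and 9 other ligands. Leaving out either array gave 18 to 20 subunits, 8 to 10 chains, 16 to 18 heterodimers and 8 to 13 trimers, the highest of each with array 1 alone. By limma the counts were 16, 7, 14 and 6, with the median instead of the highest probe set they were 16, 7, 13 and 6, and quantile normalization of both arrays together changed none of the 7 counts. With probe sets ending in _s_at or _x_at left out, which can match several transcripts, there were 17 subunits, 8 chains, 15 heterodimers, 8 trimers, 33 adaptor and signalling genes, 17 basement membrane partners and laminin receptors and 14 other ligands, and Itga5 was the member that lost its call, since its other probe sets lay at 4.89, 4.80 and 4.42. Members crossed 5 under some settings. By that median, Itga4 was at 3.86, Itga5 at 4.84, Lama3 at 4.77, Lama4 at 4.53 and Lamc3 at 4.91. Of these, Lama4 and Lamc3 were not above 5 on both arrays with the highest probe set either. With array 1 alone, Itga1 was at 5.02, Itgal at 5.08, Lama4 at 5.23 and Lamc3 at 5.21. With array 2 alone, Itga1 was at 4.70, Itgal at 4.88, Lama4 at 4.95 and Lamc3 at 4.79, and after quantile normalization Lamc3 was at 4.9975. Above the limit under all settings, that of 8 included, were 7 members (Itga6, Itgav, Itgb1, Itgb5, Itgb8, Lamb1 and Lamc1), and 15 were so under all settings other than the limit of 8. Each setting was changed alone, so the median was held against 5. By the median of their probe sets, Itgb1 (5.34), Itgav (5.77) and Lamc1 (7.98) were not above 8. With 2 arrays and a background reaching 6.92, signal below that level cannot be told from probe sets without a transcript.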
